A study of Mus musculus with 18 samples.

Results

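The 10 genes that flank Trp53 on mouse chromosome 11 were followed by RNA sequencing in cell lines of malignant peripheral nerve sheath tumors (MPNST), to ask whether their transcripts fall together with Trp53 where that gene was targeted. The members were taken by gene name from the read-count table and were Wrap53, Atp1b2, Shbg, Sat2, Fxr2, Sox15, Mpdu1, Cd68, Eif4a1 and Senp3, 10 of 35275 genes. All 10 were found, and 9 passed the filter on low counts that left 15207 genes for testing; Shbg did not.

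The comparison was between 6 primary lines, 3 labelled Nf1/p53 dKO and 3 labelled Nf1/Cdkn2a dKO, where dKO stands for double knockout. Each line was sequenced from 3 cultures, which gave 18 libraries. Each line came from its own tumor, raised in a wild-type 129 Sv/Jae mouse by injecting an adenovirus with Cas9 and guides into the sciatic nerve, and was grown in serum medium after long passage. Both genotypes carried the Nf1 knockout, so none of the lines is wild type for Nf1, and a line stands for 1 tumor. Nf1 itself lies 9747.8 kb from Trp53 on the same chromosome. The line was the unit of replication: counts of its 3 cultures were added, levels were given as CPM, counts scaled to a library of 1000000, and differences as log2 ratios of Nf1/p53 dKO over Nf1/Cdkn2a dKO, so that a negative value means lower in Nf1/p53 dKO.

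Trp53 encodes the tumor suppressor transcription factor p53, and it sits in a gene-dense stretch shared with unrelated genes. A neighbor's transcript can be read for whether a lower level of Trp53 RNA stands alone or is shared by the DNA around it: a deletion over several genes lowers them together, while a small insertion or deletion at a guide site leaves the neighbors' DNA in place. RNA levels in cell lines also differ from line to line for many other reasons, and a copy number was not measured here.

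In the GRCm38 build, Trp53 covers chromosome 11 positions 69580359 to 69591873 on the plus strand. Wrap53 covers 69561758 to 69580255 on the minus strand, so that the pair start head to head with 103 bases between their annotated first bases. The other 9 members follow on the far side of Trp53, from Atp1b2, whose near end is 7.9 kb past the end of Trp53, to Senp3, whose near end is 81.2 kb past it. Sat2, Fxr2 and Sox15 are on the plus strand like Trp53, and the other 7 members are on the minus strand. The window shared by Trp53 and Wrap53 is printed because this pair is the closest and a lesion at the Trp53 start would touch both; the bases between the 2 annotated starts are in capitals. The window of Cd68 is printed because Cd68 had the most negative ratio among the members with at least 10 counts in every line; its match to the p53 half-site consensus is in capitals. Both are RefSeq windows (GRCm38.p6) of 250 bases before and 50 bases after a gene start, the first at chr11:69580109-69580408 on the plus strand and the second at chr11:69666121-69666420 on the minus strand, written 5′ to 3′.
Trp53 and Wrap53: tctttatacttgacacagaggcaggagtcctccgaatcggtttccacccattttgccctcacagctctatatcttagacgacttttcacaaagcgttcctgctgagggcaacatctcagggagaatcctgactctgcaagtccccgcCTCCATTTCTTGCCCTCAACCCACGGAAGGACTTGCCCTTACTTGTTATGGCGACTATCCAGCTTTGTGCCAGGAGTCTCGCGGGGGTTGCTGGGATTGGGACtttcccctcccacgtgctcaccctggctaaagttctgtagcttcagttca
Cd68: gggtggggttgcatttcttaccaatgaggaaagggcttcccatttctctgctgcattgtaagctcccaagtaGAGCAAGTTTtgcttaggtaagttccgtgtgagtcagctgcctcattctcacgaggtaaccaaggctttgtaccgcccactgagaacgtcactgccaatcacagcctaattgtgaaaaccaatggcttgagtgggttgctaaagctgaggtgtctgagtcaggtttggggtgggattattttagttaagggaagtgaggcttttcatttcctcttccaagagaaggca

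Of the 10 members, 9 have such a window. A match to the p53 half-site consensus was searched on both strands, and 2 of the 9 members held one, Wrap53 and Cd68, against 8.36% of 32851 windows in all. Members were counted per gene and the background per window, and Wrap53 and Senp3 had 2 windows each. The Wrap53 match lies at 69580284 to 69580293, inside the capitals, and it is the same stretch that matches in the Trp53 window. The letters CACGTG were found in the windows of Wrap53 and Eif4a1, against 7.15% of all windows, and the Wrap53 match at 69580369 to 69580374 is again shared with Trp53. These matches describe the letters in the windows and carry no information on binding.

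Trp53 was lower in every Nf1/p53 dKO line. Its level was 94.1, 67.5 and 58.7 CPM in Nf1/p53 dKO lines 1, 2 and 3 and 247, 246 and 185 CPM in Nf1/Cdkn2a dKO lines 1, 2 and 3. Neither the lines nor the 18 cultures of the 2 genotypes overlapped. The mean was 73.4 ± 18.5 CPM (SD, n = 3 lines) against 226 ± 35.6 CPM (SD, n = 3 lines), which is 32.5%, and the log2 ratio was -1.62 ± 0.23 (SE; edgeR quasi-likelihood test, adjusted p = 0.0361). The transcript was therefore reduced and still present, at 4240 counts or more in each line. The adjusted p was 0.0436 without Nf1/p53 dKO line 1, and it rose to 0.0884 without Nf1/p53 dKO line 2, 0.0671 without Nf1/p53 dKO line 3, and 0.124, 0.118 and 0.0828 without Nf1/Cdkn2a dKO lines 1, 2 and 3. Fewer cells that express a gene and less RNA per cell cannot be told apart in these bulk libraries.

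No member was called between the genotypes. In the same test 274 of 15207 genes passed an adjusted p of 0.05, which is 1.8% of the genes (0.638% lower and 1.16% higher in Nf1/p53 dKO), and 0 of the 9 tested members did; 1 member, Atp1b2, had an unadjusted p under 0.05, against 22.4% of all genes. DESeq2 on the same 6 lines called 1 member, Atp1b2, as higher, with 12.0% of all genes called. None of the 9 members had all 3 Nf1/p53 dKO lines below all 3 Nf1/Cdkn2a dKO lines, as Trp53 and 14.8% of all genes had. The median log2 ratio of the 9 members was -0.06, beside 0.023 over all genes tested, with 5 members fitted lower and 4 higher (48.2% of all genes were fitted lower). For 7 of the 9 members the 95% interval of the difference stayed above a log2 ratio of -1, a fall to 50% of the Nf1/Cdkn2a dKO level, as it did for 67.5% of all genes. The intervals of Cd68 and Sox15 reached below it.

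**Figure D1:**
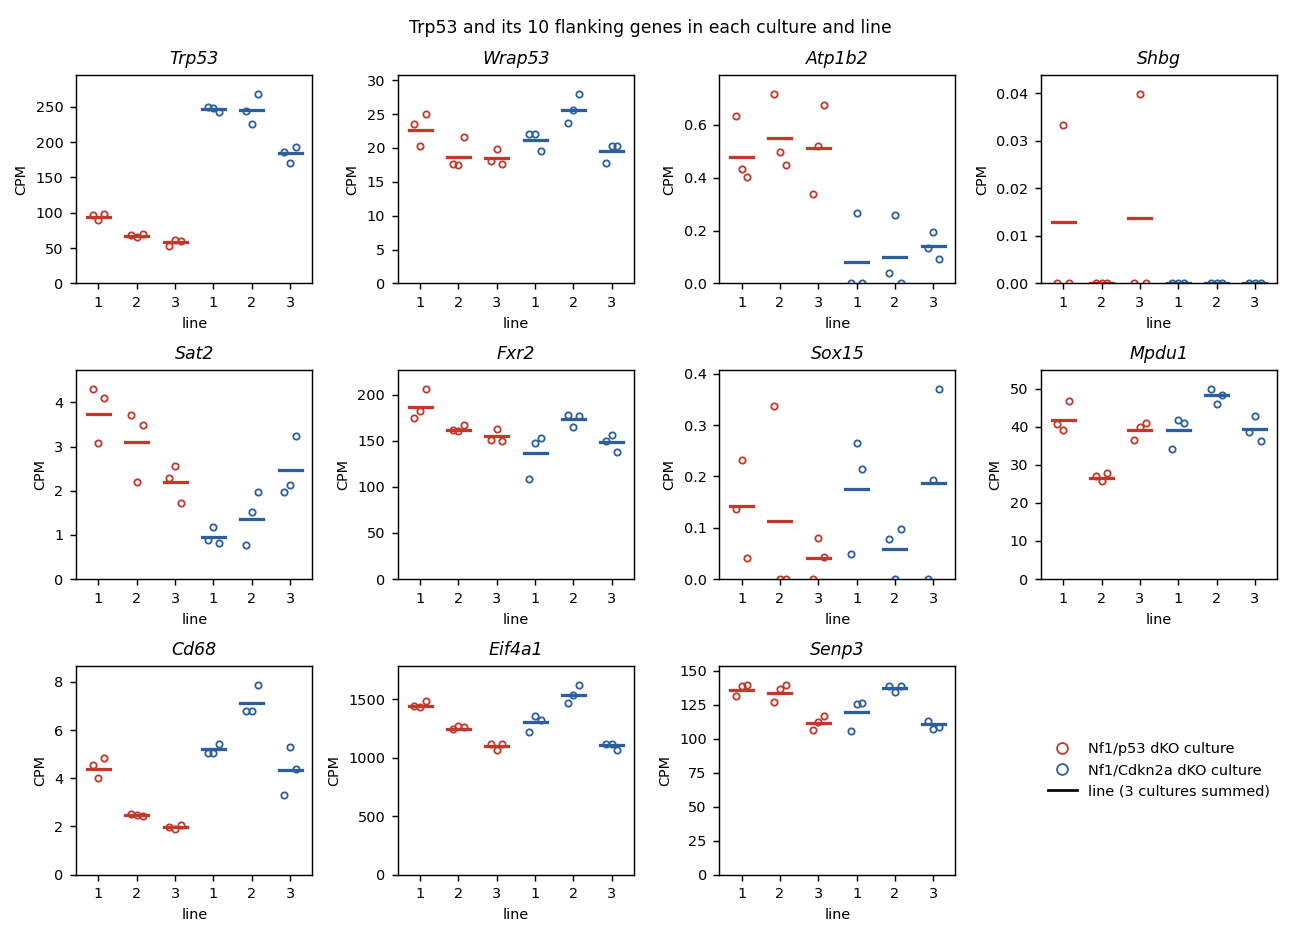
Levels of Trp53 and its 10 flanking genes in CPM (vertical axis, from 0, with its own scale in each panel) for lines 1 to 3 of each genotype (horizontal axis; red, Nf1/p53 dKO; blue, Nf1/Cdkn2a dKO). Open points are cultures and bars are lines with their 3 cultures summed; the genotypes are apart in the panels of Trp53, where Nf1/p53 dKO is lower, and Atp1b2, where it is higher.

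Wrap53, the gene closest to Trp53, encodes a WD-repeat protein that carries telomerase RNA to Cajal bodies. Its level was 22.6, 18.7 and 18.5 CPM in Nf1/p53 dKO lines 1, 2 and 3 and 21.1, 25.6 and 19.6 CPM in Nf1/Cdkn2a dKO lines 1, 2 and 3. Lines 2 and 3 of Nf1/p53 dKO were the lowest of the 6, but the genotypes overlapped through line 1. The mean was 19.9 ± 2.29 against 22.1 ± 3.14 CPM (SD, n = 3 lines each), and the log2 ratio was -0.15, with a 95% interval from -0.60 to 0.30 (edgeR adjusted p = 0.671). The whole interval lay above that of Trp53, which ran from -2.17 to -1.08. The number of Trp53 reads per Wrap53 read was 4.17, 3.61 and 3.16 in Nf1/p53 dKO lines 1, 2 and 3 and 11.7, 9.60 and 9.44 in Nf1/Cdkn2a dKO lines 1, 2 and 3, so the balance of this head-to-head pair separated the genotypes in every line. The mean log2 ratio of Trp53 to Wrap53 differed by -1.49 (exact permutation test over lines, two-sided p = 0.1, the smallest that 3 lines against 3 allow). The genotypes were already apart in Trp53 alone, so the ratio restates that difference and is no separate test of the pair.

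Atp1b2, the next gene, encodes a beta subunit of the sodium pump that is best known from glia. It was scarce and stood apart in the direction opposite to Trp53. It had 37, 39 and 37 counts in Nf1/p53 dKO lines 1, 2 and 3, or 0.477, 0.552 and 0.512 CPM, and 5, 7 and 9 counts in Nf1/Cdkn2a dKO lines 1, 2 and 3, or 0.0802, 0.101 and 0.141 CPM. Every Nf1/p53 dKO line was above every Nf1/Cdkn2a dKO line, as in 16.6% of all genes, and every Nf1/p53 dKO culture above every Nf1/Cdkn2a dKO culture, as in 7.21%. The log2 ratio was 2.24, with a 95% interval from 1.21 to 3.27 (edgeR adjusted p = 0.0544). Over the 12 alternatives that tested Atp1b2, the adjusted p was highest at 0.189 (edgeR without Nf1/Cdkn2a dKO line 1). The lowest, 1.61e-05, came from DESeq2 on the 18 cultures, which counts cultures of 1 tumor as replicates. DESeq2 on the 6 lines gave an adjusted p of 0.00342. The gene passed the filter only through its Nf1/p53 dKO counts. Of 8 Schwann cell markers, 6 were tested, and all 6 were fitted higher in Nf1/p53 dKO, where 48.2% of all genes were fitted lower. The median log2 ratio of the 6 was 2.00. The edgeR test called 0 of the 6, against 1.8% of all genes, and 2 had an unadjusted p under 0.05, against 22.4%. DESeq2 on the 6 lines called 1, Mbp, against 12.0% of all genes. The summed level of the 8 was 3.62, 75.5 and 3.86 CPM in Nf1/p53 dKO lines 1, 2 and 3. It was 1.52, 2.90 and 3.07 CPM in Nf1/Cdkn2a dKO lines 1, 2 and 3. In Nf1/p53 dKO line 2, Ngfr made up 64.3 CPM of the sum. The part of Schwann cells in the Atp1b2 values was not tested.

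Shbg and Sat2 follow. Shbg encodes the sex hormone-binding globulin, and it had 2 counts in all 18 libraries together, 1 each in lines 1 and 3 of Nf1/p53 dKO. At this depth no difference in Shbg was detectable. Sat2 encodes a thialysine acetyltransferase related to the polyamine acetyltransferase Sat1. Its level was 3.74, 3.10 and 2.20 CPM in Nf1/p53 dKO lines 1, 2 and 3 and 0.947, 1.37 and 2.47 CPM in Nf1/Cdkn2a dKO lines 1, 2 and 3. The values overlapped at Nf1/p53 dKO line 3 and Nf1/Cdkn2a dKO line 3. The log2 ratio was 0.92, with a 95% interval from -0.18 to 2.01 (edgeR adjusted p = 0.292).

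Fxr2 encodes an RNA-binding protein of the fragile X family. Its level was 186, 161 and 155 CPM in Nf1/p53 dKO lines 1, 2 and 3 and 137, 173 and 149 CPM in Nf1/Cdkn2a dKO lines 1, 2 and 3, with the genotypes interleaved. The log2 ratio was 0.13, and its 95% interval, from -0.23 to 0.49, stayed above a log2 ratio of -1. Sox15 encodes an SRY-related transcription factor and was near the limit of detection, with 11, 8 and 3 counts in Nf1/p53 dKO lines 1, 2 and 3 and 11, 4 and 12 counts in Nf1/Cdkn2a dKO lines 1, 2 and 3. Its 95% interval, from -2.15 to 1.16, allowed a change in either direction.

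Mpdu1 encodes a protein needed for the use of dolichol-linked mannose in glycosylation. Its level was 41.8, 26.6 and 39.1 CPM in Nf1/p53 dKO lines 1, 2 and 3 and 39.0, 48.2 and 39.5 CPM in Nf1/Cdkn2a dKO lines 1, 2 and 3. Line 2 of Nf1/p53 dKO was the lowest of the 6, and the other 2 were within the range of the Nf1/Cdkn2a dKO lines. The log2 ratio was -0.24, with a 95% interval from -0.74 to 0.27 (edgeR adjusted p = 0.546). The last 31 bases of Mpdu1 and Sox15 overlap on opposite strands, and reads there cannot be told apart because the strand used in counting was not given in the sources used here.

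Cd68 encodes a lysosomal membrane protein of macrophages that other cells also make at lower levels. Its level was 4.38, 2.46 and 1.96 CPM in Nf1/p53 dKO lines 1, 2 and 3 and 5.20, 7.14 and 4.33 CPM in Nf1/Cdkn2a dKO lines 1, 2 and 3. Line 1 of Nf1/p53 dKO was level with the lowest Nf1/Cdkn2a dKO line, and lines 2 and 3 were below all of them. The mean was 2.94 ± 1.28 against 5.56 ± 1.44 CPM (SD, n = 3 lines each), and the log2 ratio was -0.92, with a 95% interval from -1.89 to 0.05 (edgeR adjusted p = 0.243). Of 10 other macrophage and leukocyte genes in the table, 8 were under 1 CPM in every line, among them Ptprc, Itgam and Spi1, and 0 of the 4 tested were called by edgeR or by DESeq2, with 0 at an unadjusted p under 0.05. The summed level of the 10 ran from 11.8 to 21.7 CPM in Nf1/p53 dKO and from 14.2 to 29.1 CPM in Nf1/Cdkn2a dKO, most of it from Cd14, which the fit put at a log2 ratio of -0.24. The part of such cells in the Cd68 values was not tested.

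Eif4a1 and Senp3 close the row. Eif4a1 encodes the RNA helicase of the cap-binding complex that starts translation, and it had the highest level among the members per length of exon, with a mean of 304 CPM per kb in Nf1/Cdkn2a dKO, beside 55.8 for Trp53 on the same scale. It stood at 1440.2, 1248 and 1099 CPM in Nf1/p53 dKO lines 1, 2 and 3 and at 1302, 1538 and 1108 CPM in Nf1/Cdkn2a dKO lines 1, 2 and 3. The log2 ratio was -0.06, with a 95% interval from -0.50 to 0.38. Senp3 encodes a nucleolar protease that removes SUMO2 and SUMO3, and it stood at 136, 133 and 112 CPM in Nf1/p53 dKO lines 1, 2 and 3 and at 119.5, 138 and 111 CPM in Nf1/Cdkn2a dKO lines 1, 2 and 3. Its log2 ratio was 0.05, with a 95% interval from -0.31 to 0.41. Both genes had at least 7071 counts in every line, and their genotypes overlapped throughout. Eif4a1 has processed copies elsewhere in the genome, so its count is uncertain to the extent that reads were shared with them.

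A deletion need not be the same in each tumor, so each Nf1/p53 dKO line was also set against the 3 Nf1/Cdkn2a dKO lines by itself. In this fit a lone line has no spread of its own and is assumed to vary like the Nf1/Cdkn2a dKO lines. The log2 ratio of Trp53 was -1.26, -1.74 and -1.95 in lines 1, 2 and 3, with edgeR adjusted p-values of 0.176, 0.0969 and 0.0464. The call in line 3 was lost without Nf1/Cdkn2a dKO line 1 (adjusted p = 0.129 by edgeR) and without Nf1/Cdkn2a dKO line 2 (0.0708), and kept without line 3 (0.0475). Among all genes, 0.0% were called lower in line 1, 0.0% in line 2 and 2.12% in line 3, and 0 of the 9 tested members were called lower in any line. At an unadjusted p under 0.05, 1 member in line 1 (Atp1b2, higher), 2 in line 2 (Atp1b2, higher, and Mpdu1, lower) and 2 in line 3 (Atp1b2, higher, and Cd68, lower) passed, against 16.0%, 17.6% and 28.3% of all genes.

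In line 1, where Trp53 was at 41.7% of the mean Nf1/Cdkn2a dKO level, 7 of the 9 members were fitted higher and 2 lower (50.1% of all genes were fitted lower), with a median log2 ratio of 0.13, beside -0.002 over all genes. None of the 9 was below all 3 Nf1/Cdkn2a dKO lines, a position that 31.1% of all genes took. Atp1b2, Sat2 and Fxr2 were above all of them, 3 of 9, against 33.9% of all genes. The intervals of 7 members stayed above -1, as did 56.8% of all intervals, and those of Sox15 and Cd68 did not.

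In line 2, where Trp53 was at 29.9%, 4 members were fitted higher and 5 lower (51.4% of all genes), with a median of -0.08, beside -0.018 over all genes. Wrap53, Mpdu1 and Cd68 were below all 3 Nf1/Cdkn2a dKO lines, 3 of 9, against 33.2% of all genes. Mpdu1 was at 63.0% of the mean Nf1/Cdkn2a dKO level, with a log2 ratio of -0.67 and a 95% interval from -1.24 to -0.09, and Cd68 was at 44.3%, with a log2 ratio of -1.17 and an interval from -2.46 to 0.12. The nearest well-counted genes on either side of this pair were Fxr2 at 105% and Eif4a1 at 94.8%. The intervals of 6 members stayed above -1, as did 56.5% of all intervals, and those of Sox15, Mpdu1 and Cd68 did not.

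In line 3, where Trp53 was at 26.0%, 3 members were fitted higher and 6 lower (50.2% of all genes), with a median of -0.13, beside -0.004 over all genes. Wrap53, Sox15, Cd68 and Eif4a1 were below all 3 Nf1/Cdkn2a dKO lines, 4 of 9, against 35.9% of all genes. Cd68 was at 35.4%, with a log2 ratio of -1.50 and a 95% interval from -2.82 to -0.18. Eif4a1, the next gene, was at 83.5%, and Senp3 was at 91.2%. The intervals of 6 members stayed above -1, as did 52.4% of all intervals, and those of Sat2, Sox15 and Cd68 did not.

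**Figure D2:**
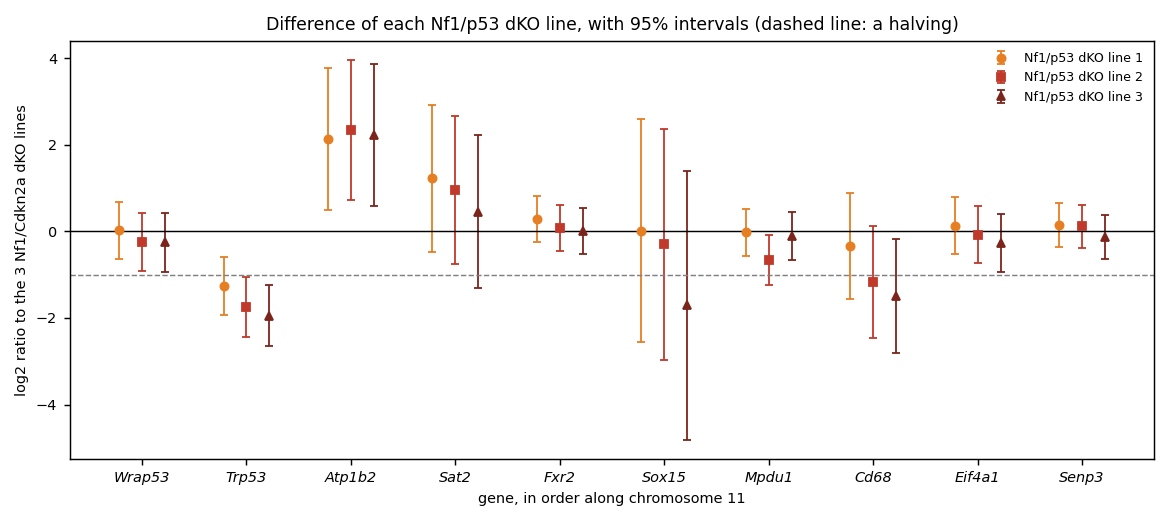
Log2 ratio of each Nf1/p53 dKO line to the 3 Nf1/Cdkn2a dKO lines (vertical axis) for Trp53 and the 9 tested members in their order along chromosome 11 (horizontal axis); bars are 95% intervals and the dashed line is a log2 ratio of -1. Trp53 was between -1.26 and -1.95. Wrap53 on one side lay between -0.25 and 0.03, and Fxr2, Eif4a1 and Senp3 on the other between -0.26 and 0.28. The rest were more spread: Cd68 lay between -1.50 and -0.34, Sox15 between -1.71 and 0.02 and Mpdu1 between -0.67 and -0.02. Sat2 lay between 0.46 and 1.23 and Atp1b2 between 2.13 and 2.34.

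Wrap53, Fxr2, Eif4a1 and Senp3 are the 4 members whose 95% interval stayed above -1 in each of the 3 lines and that had at least 1252 counts in every line. Mpdu1 had at least 1881 counts in every line and was left out through its line 2 interval, from -1.24 to -0.09. Over these 4 genes and 3 lines the lowest interval bound was -0.93, for Wrap53 and Eif4a1 in line 3, a ratio of 0.525 and 0.524 to the Nf1/Cdkn2a dKO level. Since the genes were picked by their bounds, a lowest bound above -1 follows from the choice and tests nothing. The 4 genes lie on both sides of Trp53. Smaller reductions shared with Trp53 were within these intervals.

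The 3 cultures of a line varied less than lines did, so a fit on the 18 cultures with each line as its own group made many more calls. Its p-values measure only the spread between cultures of the same line. That fit called 28.2%, 29.3% and 33.4% of all genes lower in lines 1, 2 and 3, and 0, 3 and 4 of 8 tested members. The members called lower were Wrap53, Mpdu1 and Cd68 in line 2 and Wrap53, Cd68, Eif4a1 and Senp3 in line 3. It called 5 members higher in line 1, 3 in line 2 and 1 in line 3, against 33.8%, 32.8% and 36.8% of all genes. Between the genotypes, the fit on cultures had no term for the line and took the 9 cultures of a genotype as replicates. It called 46.5% of all genes and 2 of 7 tested members, Sat2 as higher and Cd68 as lower. Their adjusted p-values were 0.0108 and 0.00245 (edgeR on 18 cultures). With the correlation within lines estimated (limma), both calls were lost, with adjusted p = 0.288 for Sat2 and adjusted p = 0.111 for Cd68.

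Among the Nf1/p53 dKO lines, Trp53 was highest in line 1, lower in line 2 and lowest in line 3, and the 3 cultures of each line did not overlap with those of the next. The same order was seen in 7 of the 9 tested members, the exceptions being Atp1b2 and Mpdu1, and in 19.1% of all genes. The steps differed in size among these members. Senp3 in line 1 (136 CPM) and line 2 (133 CPM) did not differ beyond the spread of its cultures. Neither did Wrap53 in line 2 (18.7 CPM) and line 3 (18.5 CPM). From line 1 to line 3, Fxr2 went from 186 to 155 CPM, Sat2 from 3.74 to 2.20 and Cd68 from 4.38 to 1.96. Trp53 went from 94.1 to 58.7 CPM. In Eif4a1 and Cd68 the cultures of the 3 lines did not overlap. With 3 lines, neighboring genes and a shared scaling of each library, this order is a description and no test was made of it.

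Beyond the members, 26 genes that start within 250 kb of Trp53 were tested, 17 of them not members. None of the 26 was called between the genotypes or in any line by edgeR on the lines. Among all genes, 1.8% were called between the genotypes and 570 of 15207 in line 3. In lines 1 and 2 the fit called 0 genes in either direction, so it could not set the neighbors apart there. Of the 17 others, 5 had an unadjusted p under 0.05 between the genotypes, against 22.4% of all genes. DESeq2 on the 6 lines called 3 of the 17, Chd3os, Chrnb1 and Fgf11, each as higher, against 12.0% of all genes. None of the 17 had a ratio as low as that of Trp53 in any line. The lowest were Efnb3, an ephrin ligand, in line 1 at -1.02, Slc35g3 in line 2 at -0.74, at under 0.2 CPM, and Tmem88 in line 3 at -1.27. The highest were Tmem88 at 3.14 in line 1 and at 2.21 in line 2, and Fgf11, a fibroblast growth factor homolog that stays inside the cell, at 5.05 in line 3. Tmem88 thus had the highest ratio in lines 1 and 2 and the lowest in line 3, with 4.73, 2.49 and 0.221 CPM in Nf1/p53 dKO lines 1, 2 and 3 and 0.433, 0.938 and 0.235 CPM in Nf1/Cdkn2a dKO lines 1, 2 and 3. The median log2 ratio of the 17 was 0.29 between the genotypes.

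**Figure D3:**
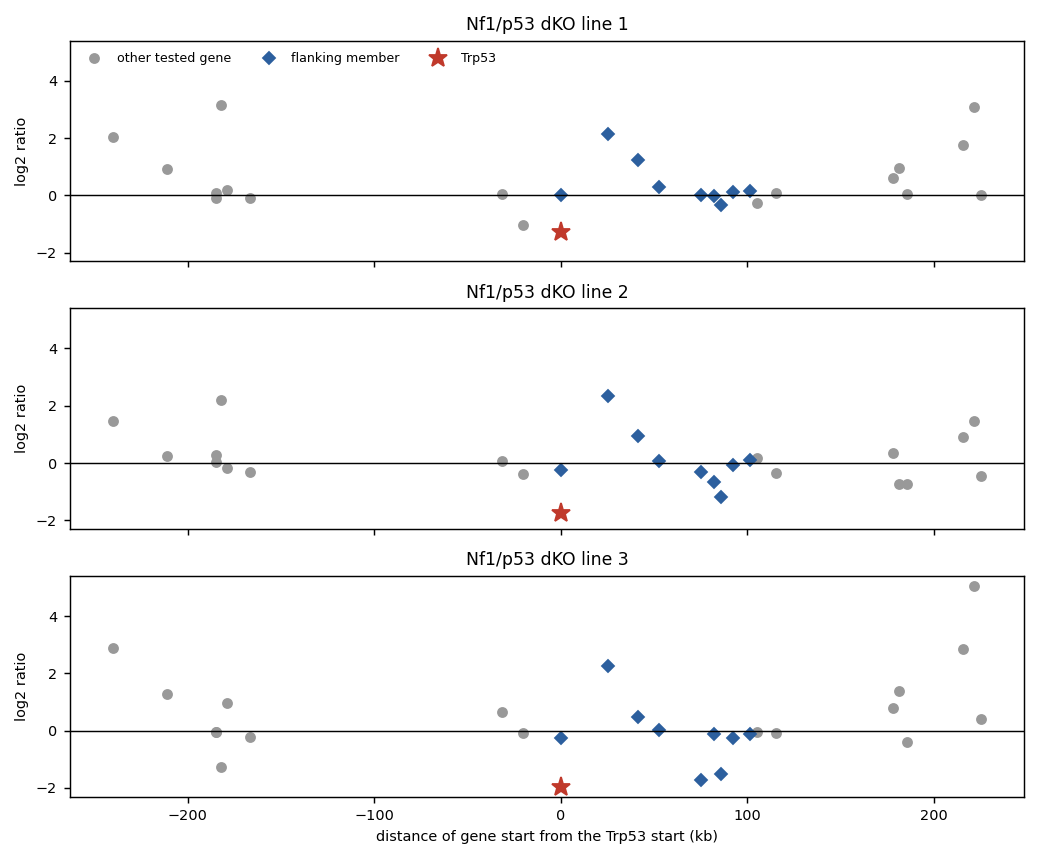
Log2 ratio of each Nf1/p53 dKO line to the 3 Nf1/Cdkn2a dKO lines (vertical axis) against the distance of a gene's start from that of Trp53 in kb (horizontal axis), for the 26 tested genes within 250 kb and for Trp53 itself (star). Trp53 was below each of them in every line. None of the 26 was called by edgeR on the lines, a fit that called 0 of all genes in lines 1 and 2.

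On a larger scale the level of the region was compared with the rest of the chromosome. The median log2 ratio over the 26 genes within 250 kb was 0.133, 0.068 and -0.005 in Nf1/p53 dKO lines 1, 2 and 3. The same median of each Nf1/Cdkn2a dKO line over the other 2 was -0.09, 0.246 and -0.152. The values of the Nf1/p53 dKO lines were thus within what the Nf1/Cdkn2a dKO lines showed among themselves. Taken by culture, the 250 kb median ran from 0.20 to 0.24 in Nf1/p53 dKO line 1. It ran from 0.05 to 0.22 in line 2 and from 0.05 to 0.19 in line 3. Within 1 Mb, 79 genes had medians of 0.164, 0.067 and 0.190, all above the -0.032 to 0.010 of the Nf1/Cdkn2a dKO lines. Over all of chromosome 11, 1252 tested genes had medians of 0.068, 0.068 and 0.125 in Nf1/p53 dKO lines 1, 2 and 3. With at least 10 counts in every line, the 1 Mb median of line 2 was 0.025, within the -0.054 to 0.063 of the Nf1/Cdkn2a dKO lines. Lines 1 and 3 stayed above that range, at 0.153 and 0.178. Within 5 Mb, 143 genes had medians of 0.289, 0.025 and 0.150, of which lines 1 and 3 were above the -0.045 to 0.054 of the Nf1/Cdkn2a dKO lines. Along the chromosome, the running median over 25 tested genes stood at 0.14, 0.07 and -0.02 in the window centered on Trp53. Its lowest points on chromosome 11 were far from Trp53, at -21.6 Mb in line 1 (-0.60), 31.6 Mb in line 2 (-0.35) and 26.7 Mb in line 3 (-1.50).

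The 196 tested genes between Trp53 and Nf1, a stretch that holds 8 of the 9 tested members, had a median of 0.351 in Nf1/p53 dKO line 1, against 0.040 for the 467 genes on the other side of Trp53 and 0.002 for the 588 genes past Nf1. The 3 cultures of line 1 gave 0.36, 0.37 and 0.42 for this stretch. In line 1, 120 of the 196 genes were above all 3 Nf1/Cdkn2a dKO lines, a position that 33.9% of all genes took, and 15 were below all of them. In lines 2 and 3 the median of the same stretch was 0.067 and 0.056, and in the Nf1/Cdkn2a dKO lines it ran from -0.006 to 0.044. The members had a median log2 ratio of 0.143 in line 1 on this scale. Nf1 had 70.0, 33.5 and 27.7 CPM in Nf1/p53 dKO lines 1, 2 and 3 and 12.7, 38.3 and 16.2 CPM in Nf1/Cdkn2a dKO lines 1, 2 and 3, so line 1 was also the highest of the 6 for Nf1 (log2 ratio between the genotypes of 0.96, edgeR adjusted p = 0.328). That ratio was 0.45 without Nf1/p53 dKO line 1 and 1.59 without Nf1/Cdkn2a dKO line 2.

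**Figure D4:**
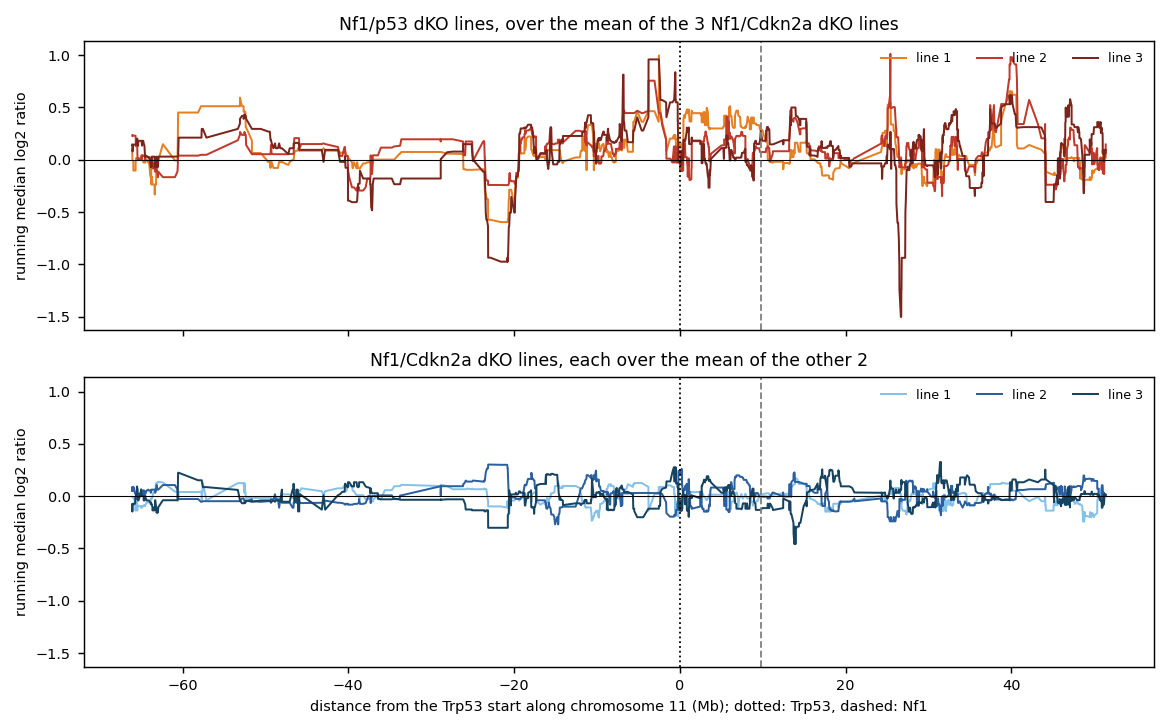
Running median of the log2 ratio over 25 tested genes (vertical axis) against distance from the Trp53 start in Mb (horizontal axis), with Nf1/p53 dKO lines over the Nf1/Cdkn2a dKO mean above and each Nf1/Cdkn2a dKO line over the other 2 below; the dotted line marks Trp53 and the dashed line Nf1. The window at Trp53 was between -0.02 and 0.14 in the Nf1/p53 dKO lines, and line 1 stayed above the others between Trp53 and Nf1, where its median over genes was 0.351.

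The members belong to unrelated processes, and the genes that work with them were scattered over the genome. Of 38 such partners 35 were tested, and 0 were called between the genotypes by edgeR; 9 had an unadjusted p under 0.05, against 22.4% of all genes, and DESeq2 on the 6 lines called 3, Sat1, Tert and Dpm3, against 12.0%. Among the telomerase partners of Wrap53, the ratio ran from 0.19 in Nop10 to 1.72 in Tert, the catalytic subunit, with 7.55, 3.68 and 5.98 CPM in Nf1/p53 dKO lines 1, 2 and 3 and 2.09, 2.02 and 1.13 CPM in Nf1/Cdkn2a dKO lines 1, 2 and 3 (adjusted p = 0.0851). Among the sodium pump subunits the lowest ratio was -0.39, in Atp1b3, another beta subunit. Sat1, the main polyamine acetyltransferase and a relative of Sat2, had 97.9, 50.9 and 34.5 CPM in Nf1/p53 dKO lines 1, 2 and 3 and 221, 317 and 296 CPM in Nf1/Cdkn2a dKO lines 1, 2 and 3. All 3 Nf1/p53 dKO lines were thus below all 3 Nf1/Cdkn2a dKO lines, as in 14.8% of all genes. Its log2 ratio was -2.19, with an edgeR adjusted p of 0.0521, while Smox, the spermine oxidase, was at 0.17. In the fragile X family Fmr1 was at -0.31 and Fxr1 at 0.70. The dolichol-mannose genes ran from -0.55 in Alg3 to 0.91 in Dpm3, the genes of the cap-binding complex from -0.65 in Eif4a2 to 0.51 in Pdcd4, an inhibitor of Eif4a1, and the SUMO proteases from -0.48 in Senp5 to 0.46 in Senp1. The relatives of Sox15, Sox7, Sox17 and Sox18, were under the filter.

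The libraries held 19560535 to 28312207 counts each and the lines 65206479 to 73065228. Of 6 markers of mesenchymal cells 0 were called by edgeR, with 3 fitted lower and 3 higher. Their summed level was 7201 to 16917 CPM, with Vim at 4727 to 10207 CPM and Thy1 down to 7.02 CPM in Nf1/Cdkn2a dKO line 2. Vim had a log2 ratio of -0.75, with all Nf1/p53 dKO lines below all Nf1/Cdkn2a dKO lines, as in 14.8% of all genes. It was called by DESeq2 on the 6 lines but not by edgeR (adjusted p = 0.0964). The defining Schwann cell marker Sox10 was at most 0.099 CPM; Ngfr stood at 64.3 CPM in Nf1/p53 dKO line 2 and at most 1.139 CPM in the other lines. The summed level of 3 endothelial markers was at most 1.86 CPM.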

How the data were processed

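RNA from 3 cultures of each of 6 lines was sequenced, and per the labels the authors' processing notes name CASAVA, STAR 2.5 and DESeq2 1.14.1 with GRCm38 (mm10). The deposited values are read counts per gene, unnormalized; the counting tool and strand setting were not given in the sources used here. Positions came from GENCODE M21, which held 34490 of the 35275 genes.

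Counts were summed per line, filtered (filterByExpr, minimum count 10, minimum total 15), scaled by TMM (factors 0.941 to 1.06) and tested with edgeR 4.0.16 quasi-likelihood with Benjamini-Hochberg adjustment over all genes. A second fit gave each Nf1/p53 dKO line its own group against the 3 Nf1/Cdkn2a dKO lines. The scripts were tested on simulated data. Alternatives used DESeq2 1.42.0, limma 3.58.1, other scalings and filters, replicate blocks and lines left out. Cultures of a line differed beyond counting noise (chi-square per degree of freedom 3.57 to 29.2), so none was a duplicate. Line-level log2 values used a prior count of 2. The study describes the cultures of a line as independent samples, but all 3 share 1 tumor. In the fit by line, p-values over cultures measure the spread within lines. Between the genotypes, the fits on cultures without a line term count cultures of 1 tumor as replicates.

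Named genes were Trp53, Nf1, the members, genes overlapping a member, called genes of the partner lists with the highest and lowest of each, and other genes within 250 kb that were called or highest or lowest in a line; other names were chosen after their values were seen. One gene that this rule names is not reported here. The members and lists were chosen with earlier results of these data known.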

Additional observations from a re-analysis of the deposited data

Results flagged for a closer look

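Of 22 groups of 9 cultures examined (11 genes in 2 genotypes), 1 had a culture far from the others: Fxr2 was 108 CPM in culture 1 of Nf1/Cdkn2a dKO line 1, where the next lowest culture had 138 CPM, a gap of 0.4932 of the group's range on the log2 scale, on which the groups were examined, and of 0.432 in CPM, which would not have stood out. Chance alone gives such a gap in about 1 of 20 groups, and the 9 cultures come from 3 lines.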

How the results depend on the processing

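Leaving out each line in turn gave Trp53 log2 ratios from -1.84 to -1.49, Eif4a1 from -0.18 to 0.06 and Senp3 from -0.02 to 0.14; the last 2 changed sign around 0. The line number as a replicate block left Trp53 at -1.64 (edgeR adjusted p = 0.0965) and called 0 genes, and no member; same-numbered lines did not deviate together (correlations -0.133 to -0.0848), so the block pairs nothing known. Calls among the members between genotypes rose from 0 to 1 with DESeq2 on the lines, 2 with edgeR on the 18 cultures, 2 with the culture number as a replicate block there, and 3 with DESeq2 on the 18 cultures, where all genes called rose from 274 to 2062, 6096, 5681 and 7186. With the line as a random effect, limma called 2173 genes and 0 members. Between the genotypes, the edgeR and limma fits on cultures tested 7 members and left out Atp1b2 and Sox15, while the DESeq2 fits took in 10. The edgeR and limma fits between the genotypes on cultures therefore say nothing on Atp1b2. In the fit on cultures, members called lower were 3 in line 2 and 4 in line 3. Members below all Nf1/Cdkn2a dKO lines in line 3 were 4, against 2 with CPM of the raw total (29.5% of all genes there) and 5 with DESeq2 size factors (36.1%). Without a filter the calls over all genes were 411 between genotypes, and 32, 127 and 820 in lines 1, 2 and 3; leaving out a Nf1/Cdkn2a dKO line moved the line 3 calls from 570 to between 0 and 259, and leaving out any line moved the genotype calls to between 0 and 172. The cause of these moves was not tested. Shbg, Sox15 and Atp1b2 are limited by depth.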
